A study of Homo sapiens with 24 samples.

Results

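The members followed across FAM167A knockdown in neuroblastoma cells were 10 transcription factor genes of the mesenchymal and epithelial-mesenchymal transition (EMT) programmes: PRRX1, TWIST1, SNAI1, SNAI2, ZEB1, ZEB2, RUNX1, RUNX2, SOX9 and BHLHE41. The 10 were taken by name and matched by Ensembl ID among the 57356 genes listed in all 3 count tables. All 10 passed the filter on low counts in every comparison.

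EMT transcription factors are DNA-binding proteins that hold or move cells toward a migratory, matrix-producing state. SNAI1, SNAI2, ZEB1 and ZEB2 are zinc finger repressors that bind E-box sequences and silence epithelial genes such as CDH1, and TWIST1 is a basic helix-loop-helix protein of mesoderm and neural crest. In neuroblastoma, a tumour of the sympathetic neural crest lineage, an adrenergic, neuron-like state and a mesenchymal, neural-crest-like state can interconvert, and PRRX1 is a homeobox factor known for driving the mesenchymal one.

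RNA was sequenced from 2 human neuroblastoma cell lines, SK-N-SH, in which neuron-like cells grow beside flatter, strongly adhering ones, and SK-N-AS. FAM167A, called DIORA1 by the study, encodes a protein that the study links to MRCK kinases and cell motility. In the siRNA experiment SK-N-SH cells with a pool of siRNAs against DIORA1 (5 libraries) were set against SK-N-SH cells with NTC siRNA, a non-targeting control (5 libraries). In the CRISPRi experiments all cells carried SpCas9-KRAB, a Cas9 fused to the KRAB repressor domain, with the guide sgDIORA1 or the control guide sgGal4. There were 3 libraries of each kind for SK-N-SH and 4 of each for SK-N-AS. The number of clones or pools behind the CRISPRi cells was not given in the sources used here. Nothing there says that replicates came from separate cultures, so p-values measure the spread between these libraries, which may be technical. Each experiment had its own controls and was tested against them.

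Levels are in CPM, read counts scaled to a common library total. Each log2 fold change sets knockdown against control and is followed by its standard error after ±. The words rose and fell are kept for genes where the adjusted p of edgeR's quasi-likelihood test, corrected over all genes of the table by the Benjamini-Hochberg method, was under 0.05. A library held between 71464698 and 90255175 reads in genes with siRNA, between 11690515 and 21628076 in SK-N-SH CRISPRi, and between 29985858 and 104455853 in SK-N-AS CRISPRi. FAM167A itself went from 188 ± 12.49 to 65.2 ± 5.13 CPM with siRNA (SD, n = 5), from 242 ± 12.7 to 3.22 ± 0.588 CPM in SK-N-SH CRISPRi (n = 3) and from 95.1 ± 3.56 to 10.2 ± 0.739 CPM in SK-N-AS (n = 4), without overlap in any experiment. By the fitted fold change 34.7%, 1.33% and 10.7% of its control level was left. In the siRNA experiment knockdown library 4 and control library 5 stood apart from their groups (mean correlation with the group 0.99033 and 0.98938, against at least 0.99097 for the others), and so did control library 2 of SK-N-AS (0.98757, against at least 0.99074 for the other controls). Without scaling factors, the share of higher genes among all called genes moved from 26.7% to 55.2% with siRNA (43.3% with upper-quartile factors) and from 49.7% to 30.4% in SK-N-SH CRISPRi, where the median over all genes shifted to -0.14 on the log2 scale. The share of reads in mitochondrial genes was 6.45% and 6.41% in siRNA knockdown libraries 3 and 4 and 7.83% to 9.07% in the other 8 siRNA libraries. In SK-N-SH CRISPRi it was 4.66% to 5.49% in controls and 5.72% to 6.56% after knockdown. Its part in the results was not tested.

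Most of 12 adrenergic markers, among them GATA3 and DBH, were present in every group. In each group 1 of the 12 averaged under 1 CPM, and in siRNA controls this was TH (0.106 CPM). The list summed to 4018 to 4498 CPM in siRNA controls. It summed to 2781 to 2963 CPM in SK-N-SH CRISPRi controls and 2436 to 2547 CPM in SK-N-AS controls. Of 9 Schwann cell and glia markers, SOX10, FOXD3 and CDH19 were listed at 0 in both CRISPRi control groups, and the list summed to at most 9.42 CPM in any library. Of 8 endothelial markers the sum was at most 3.5 CPM. Of 8 blood cell markers the sum was at most 2.03 CPM in SK-N-SH, while PTPRC, the leukocyte surface phosphatase CD45, alone gave 541.5 ± 19.1 CPM (SD, n = 4) in SK-N-AS controls and 450.6 ± 14.1 CPM after knockdown. In bulk RNA, fewer cells of a type and less RNA per cell cannot be told apart.

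ZEB1 and ZEB2 are textbook targets of the miR-200 family, small RNAs that pair through bases 2 to 8 (the seed) with matching stretches in messenger RNA. The mature family members are shown because ZEB1 and ZEB2 differ from the other members in how many such matches they hold. From RefSeq, with the seed in capitals, 3 share one seed and the other 2 share another that differs from it at a single base:
hsa-miR-200b-3p: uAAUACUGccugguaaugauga
hsa-miR-200c-3p: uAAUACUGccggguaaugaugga
hsa-miR-429: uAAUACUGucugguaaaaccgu
hsa-miR-200a-3p: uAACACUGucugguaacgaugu
hsa-miR-141-3p: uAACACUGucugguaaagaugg

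In the GENCODE v29 transcript with the longest coding sequence, the 3′ untranslated region of ZEB1 (2552 bases) held 6 matches to the first seed (CAGTATT) and 3 to the second (CAGTGTT), and that of ZEB2 (5373 bases) held 5 and 4. Of 18474 protein-coding genes scanned the same way, 25.8% held at least 1 match and 8 genes (0.0433%) held 8 or more. RUNX1 held 3 matches, BHLHE41, SNAI2 and SOX9 held 1 each, and PRRX1, RUNX2, SNAI1 and TWIST1 held 0 in the transcript used. One match of each kind is shown for both genes, with the heptamer in capitals:
ZEB1, first seed: attgttttatcttatCAGTATTa
ZEB1, second seed: tgagatttgatttaaCAGTGTTa
ZEB2, first seed: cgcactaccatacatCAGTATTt
ZEB2, second seed: agtgccatccttgtaCAGTGTTa
A match is a description of letters, not a measured site. These libraries were made from poly-A RNA and do not measure mature microRNAs. The genes MIR200A, MIR200B, MIR429, MIR200C and MIR141 had 0 reads in all 24 libraries, and the host gene MIR200CHG had 4 reads in the 10 siRNA libraries and 0 in the 14 CRISPRi libraries.

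RefSeq promoter windows (GRCh38, 250 bases before to 50 after a start site) were at hand for 6 of the 10 members. Those of RUNX2 and BHLHE41 are shown because these genes moved in the CRISPRi experiments beside RUNX1 and BHLHE40, their relatives. Bases inside an annotated exon were left out. In capitals are the RUNX motif TGTGGT (here as ACCACA), the AP-1 motif TGAGTCA and the E-box CAGGTG bound by SNAI and ZEB proteins.
RUNX2 distal promoter, chr6:45328080-45328156, plus strand: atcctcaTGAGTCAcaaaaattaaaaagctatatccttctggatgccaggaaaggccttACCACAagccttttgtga
BHLHE41 promoter, chr12:26125128-26125287, minus strand: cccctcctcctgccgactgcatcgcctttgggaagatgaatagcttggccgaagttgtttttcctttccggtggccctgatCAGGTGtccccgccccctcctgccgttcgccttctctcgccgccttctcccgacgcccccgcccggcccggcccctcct
A further RUNX motif lay 87 bases before the same RUNX2 start site, and the clock E-box CACGTG lay 48 bases before that of BHLHE41, each inside an exon of a longer transcript:
RUNX2, chr6:45328231-45328260, plus strand: gtgaggtcacaaACCACAtgattctgcctc
BHLHE41, chr12:26125068-26125097, minus strand: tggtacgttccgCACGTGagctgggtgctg
Searched on both strands in the 250 upstream bases of all 35116 windows of the table, TGTGGT was found in 11% of them, CAGGTG in 17.5%, CACGTG in 6.34% and TGAGTCA in 4.2%. The windows of PRRX1 and ZEB2 and the proximal window of RUNX2 held none of the motifs just named, nor did that of RUNX1. A further motif searched in the same way, GGAATG of TEAD factors, was found in 11.9% of all windows. It lay 53 bases before the RUNX1 start site and 41 bases before the proximal one of RUNX2. The windows of PRRX1 and ZEB2 lacked it too. Of the 7 windows of ZEB1, 2 held CAGGTG and 2 held TGTGGT.

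Control levels were compared between genes per length, as TPM, a scale computed here from the counts and gene lengths. These lengths are given per gene and not per transcript, such as 25058 bases for ZEB2 and 8650 for ZEB1, so the order depends on them. The CPM of ZEB2 and ZEB1 was 86.9 and 62.5 in siRNA controls. In CRISPRi controls it was 61.2 and 62.8 (SK-N-SH) and 69.7 and 71 (SK-N-AS). TWIST1 was the highest of the 10 genes in all 3 control groups, at 756 ± 38.4 TPM (SD, n = 5) in siRNA controls, 440 ± 1.24 TPM (n = 3) in SK-N-SH CRISPRi controls and 217 ± 9.21 TPM (n = 4) in SK-N-AS controls. PRRX1 came next in each, at 146 ± 6.78, 170.0 ± 5.28 and 169.7 ± 3.81 TPM. In siRNA controls the order below them was SNAI1 (36.5 TPM), SOX9 (28.3), ZEB1 (24.6), BHLHE41 (12.4), ZEB2 (11.8), SNAI2 (8.89), RUNX1 (6.94) and RUNX2 (2.83). There SOX9 and ZEB1, and BHLHE41 and ZEB2, overlapped across libraries and the other neighbours did not.

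In SK-N-SH CRISPRi controls SOX9 (28.2 TPM), ZEB1 (27.2) and SNAI1 (26.7) overlapped, as did the neighbours RUNX1 (9.98), ZEB2 (9.15), BHLHE41 (8.93) and SNAI2 (7.74), each with the next, and RUNX2 was lowest at 1.86 TPM. In SK-N-AS controls SOX9 (59.3 TPM) and SNAI1 (55.8) overlapped, and SNAI2 (31.6), ZEB1 (27.8), BHLHE41 (17.6), ZEB2 (9.42), RUNX2 (6.43) and RUNX1 (2.52) followed with no overlap between neighbours. RUNX1 lay above RUNX2 in both SK-N-SH control groups and below it in SK-N-AS.

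**Figure D1:**
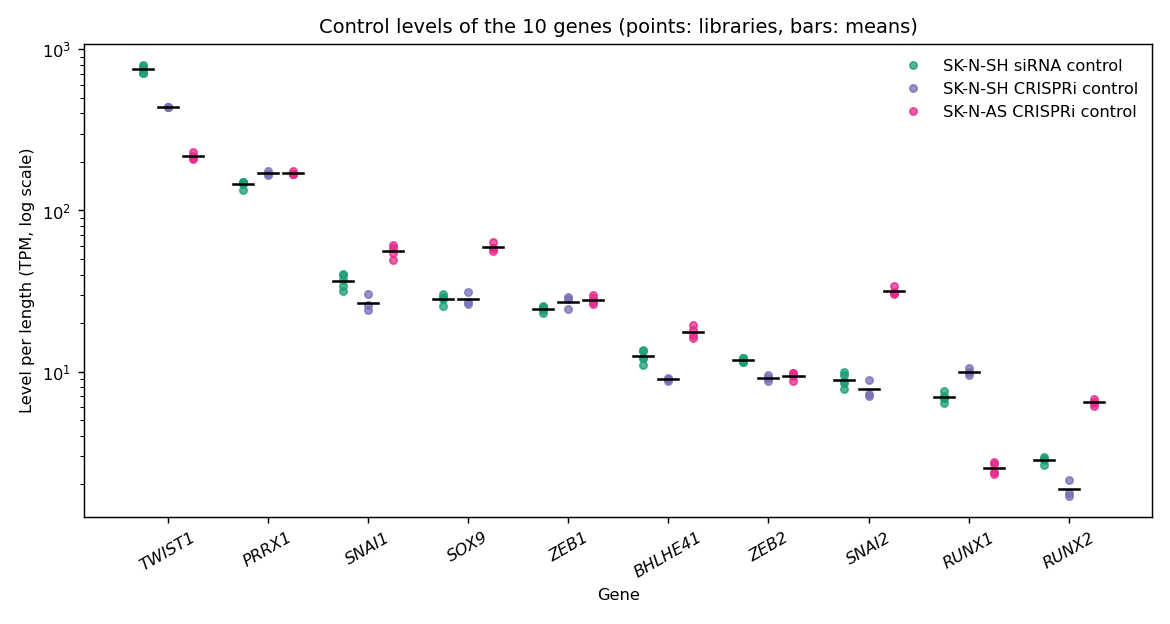
Level per length (TPM, log scale) of the 10 genes in the control libraries of the 3 experiments, with points for libraries and bars for means. TWIST1 is highest in each experiment, RUNX2 is lowest in SK-N-SH (2.83 and 1.86 TPM) and RUNX1 is lowest in SK-N-AS (2.52 TPM).

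Set against SK-N-SH CRISPRi controls, SK-N-AS CRISPRi controls differed in all 10 genes, 8 higher and 2 lower, where 80.1% of the 17729 genes tested differed, 39.2% higher and 40.9% lower. Of the members 6 differed at least 2-fold, against 36.1% of all genes. SNAI2, known in neural crest migration, was 4.46-fold higher in SK-N-AS (log2 difference 2.16 ± 0.089, adjusted p = 1.01e-21), RUNX2, the master regulator of bone-forming cells, 3.83-fold, SOX9 2.31-fold, SNAI1 2.27-fold and BHLHE41 2.15-fold. RUNX1, a regulator of blood stem cells, was 3.64-fold lower in SK-N-AS (-1.86 ± 0.071, adjusted p = 1.1e-22) and TWIST1 1.86-fold lower (-0.89 ± 0.039, adjusted p = 7.46e-21). PRRX1 (0.12 ± 0.034), ZEB2 (0.16 ± 0.050) and ZEB1 (0.14 ± 0.053, adjusted p = 0.0136) differed by small amounts, and the call of ZEB1 was lost without SK-N-SH control library 1 (adjusted p = 0.141) and under library size alone (0.0595). Line and experiment cannot be told apart in this comparison.

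The SK-N-SH controls of the CRISPRi and siRNA experiments, which share a line by name, differed in 8 of the 10 genes (68.5% of 21679 genes tested), 3 higher (31.3% of all) and 5 lower (37.2%) in the CRISPRi controls. TWIST1 was 1.76-fold lower there (-0.81 ± 0.046, adjusted p = 2e-14), RUNX2 1.58-fold lower, BHLHE41 1.42-fold lower, SNAI1 1.39-fold lower and ZEB2 1.32-fold lower. RUNX1 was 1.4-fold higher (0.49 ± 0.065) and PRRX1 1.14-fold higher. ZEB1 was higher by 0.12 ± 0.052 (adjusted p = 0.0453), a call lost without siRNA control library 1, 2 or 4 (adjusted p = 0.0793, 0.0983 and 0.054) or CRISPRi control library 2 or 3 (0.186 and 0.278), by DESeq2 (0.0623), under library size alone (0.0984) and with no filter (0.134). SOX9 (-0.05 ± 0.073, adjusted p = 0.582) and SNAI2 (-0.23 ± 0.11, adjusted p = 0.0656) did not pass, and SNAI2 passed without siRNA control library 2 (adjusted p = 0.036) or CRISPRi control library 2 (0.0255), and under library size alone (0.048). Method, library kit and experiment cannot be told apart here.

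Knockdown changed more members in the CRISPRi experiments than with siRNA, against very different backgrounds. With siRNA 3 of the 10 fell and 0 rose, where 9.53% of 21018 genes were called, 2.55% higher and 6.98% lower. In SK-N-SH CRISPRi 4 rose and 2 fell, where 55.8% of 15391 genes were called, 27.7% higher and 28% lower, so the share of members called was close to that of all genes. In SK-N-AS CRISPRi 7 rose and 2 fell, where 30.6% of 19277 genes were called, 15.2% higher and 15.5% lower. Knockdown and control libraries did not overlap for 4, 6 and 8 of the 10 genes, against 8.74%, 60.7% and 29.1% of all genes tested. The median log2 fold change of the 10 genes was -0.14, 0.13 and 0.25 in the 3 experiments, beside 0.0085, -0.0068 and -0.0024 over all genes. Without both siRNA libraries that stood apart the count with siRNA was again 3.

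**Figure D2:**
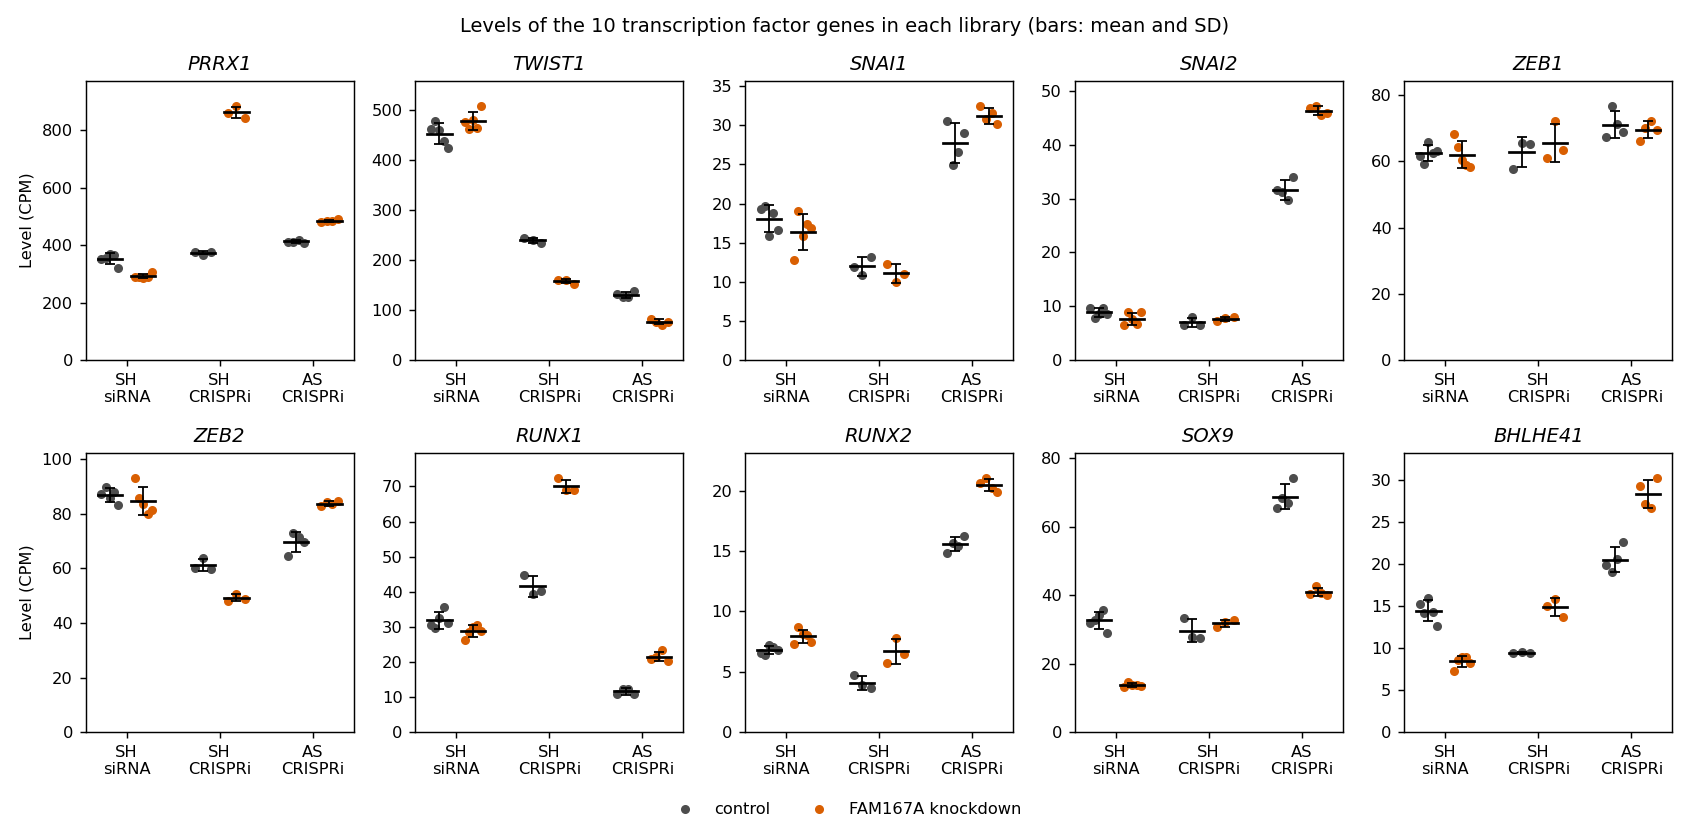
Level (CPM) of each of the 10 genes in every library of the 3 experiments, controls in grey and FAM167A knockdown in orange, with bars for the mean and SD of each group. PRRX1 in SK-N-SH CRISPRi rises from 374 to 862 CPM, and SOX9 falls with siRNA from 32.7 to 13.8 CPM and in SK-N-AS from 68.9 to 41 CPM.

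**Figure D3:**
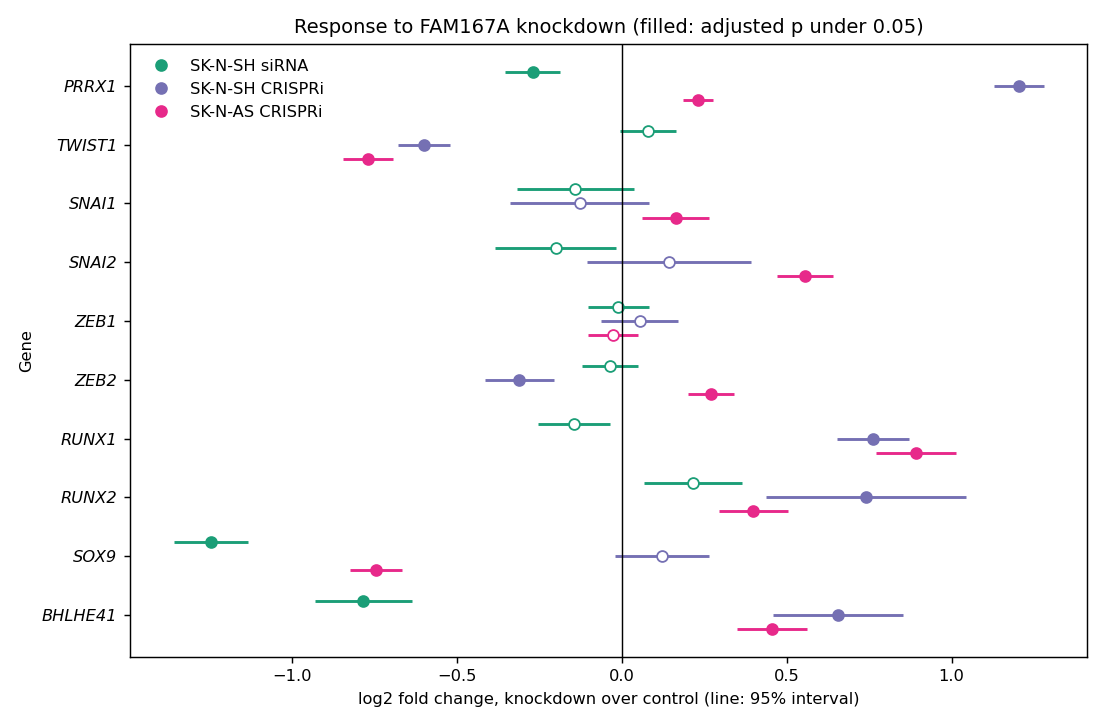
log2 fold change of each gene, knockdown over control, with its 95% interval; filled points passed the test. PRRX1 and BHLHE41 fell with siRNA and rose in both CRISPRi experiments, and ZEB1 has open points near 0 in all 3.

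PRRX1 (ENSG00000116132; GRCh38 chromosome 1, 170662728 to 170739419, plus strand) was the most responsive member in SK-N-SH CRISPRi. Its control libraries gave 377.9, 366.8 and 377.8 CPM, and the knockdown libraries 859.9, 883.5 and 843.9 CPM. Every knockdown library was far above every control, a 2.31-fold rise (log2 fold change 1.20 ± 0.039, adjusted p = 1.47e-25). In SK-N-AS the controls gave 410.5, 412.7, 419.4 and 409.3 CPM and the knockdown libraries 479.2, 483.3, 484.6 and 489.6 CPM. The groups did not overlap and PRRX1 rose 1.17-fold (0.23 ± 0.023, adjusted p = 5.58e-10). With siRNA the controls gave 353.5, 354.7, 370.4, 365.2 and 321.4 CPM and the knockdown libraries 288.5, 291, 286.6, 289.7 and 307.2 CPM. Here the knockdown group lay wholly below the controls, and PRRX1 fell 1.21-fold (-0.27 ± 0.043, adjusted p = 0.000116).

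TWIST1 (ENSG00000122691; chromosome 7, 19020991 to 19117672, minus strand) fell in both CRISPRi experiments. In SK-N-SH CRISPRi it went from 243.8, 238.8 and 233.3 CPM in controls to 159.1, 160.3 and 152.2 CPM. In SK-N-AS it went from 132.2, 126.3, 125.3 and 137.9 CPM to 82.1, 77, 69.7 and 76.7 CPM. The groups were well separated in both lines, with falls of 1.52-fold (-0.60 ± 0.040, adjusted p = 9.71e-16) and 1.71-fold (-0.77 ± 0.039, adjusted p = 4.96e-17). With siRNA TWIST1 stood at 452 ± 21.2 CPM in controls and 477 ± 17.9 CPM after knockdown (n = 5 in each group), and the groups overlapped (0.08 ± 0.044, adjusted p = 0.308).

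SNAI1 (ENSG00000124216; chromosome 20, 49982999 to 49988886, plus strand), the founding Snail repressor, moved least of the called members. In SK-N-AS the controls gave 30.5, 24.9, 26.6 and 29 CPM and the knockdown libraries 32.4, 30.8, 31.6 and 30.1 CPM. The highest control lay inside the knockdown range, and the rise of 0.16 ± 0.051 (adjusted p = 0.0137) was lost without control library 2, which stood apart (adjusted p = 0.0661), control library 3 (0.0733) or knockdown library 1 (0.0544). In SK-N-SH the gene did not pass with siRNA (18.1 ± 1.73 to 16.4 ± 2.32 CPM, n = 5, log2 fold change -0.14, adjusted p = 0.402) or with CRISPRi (12 ± 1.2 to 11.1 ± 1.19 CPM, n = 3, -0.13, 95% interval -0.34 to 0.08, adjusted p = 0.325), although in SK-N-SH CRISPRi it passed as lower under library size alone (-0.26, adjusted p = 0.0386).

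SNAI2 (ENSG00000019549; chromosome 8, 48917604 to 48921740, minus strand), also called Slug, rose in SK-N-AS. Controls gave 31.6, 31.2, 29.7 and 34 CPM and knockdown libraries 46.9, 47.2, 45.5 and 46 CPM. The groups were separated by more than the range of either, a 1.47-fold rise (0.55 ± 0.043, adjusted p = 8.41e-13). In SK-N-SH, where SNAI2 was several-fold lower, the groups overlapped in both experiments. It went from 8.86 ± 0.774 to 7.71 ± 1.14 CPM with siRNA (n = 5, -0.20 ± 0.093, adjusted p = 0.209) and from 7.01 ± 0.905 to 7.69 ± 0.375 CPM with CRISPRi (n = 3, 0.14 ± 0.13, adjusted p = 0.358). The CRISPRi libraries held 347 control and 352 knockdown reads of this gene in all, and the 95% interval of its log2 fold change ran from -0.11 to 0.39.

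ZEB1 (ENSG00000148516; chromosome 10, 31318495 to 31529814, plus strand) did not pass in any of the 3 experiments. It stood at 62.5 ± 2.41 and 62.1 ± 4.22 CPM with siRNA, 62.8 ± 4.54 and 65.5 ± 5.81 CPM in SK-N-SH CRISPRi and 71 ± 4.07 and 69.5 ± 2.54 CPM in SK-N-AS, control before knockdown. The groups overlapped each time, and the 95% intervals of the log2 fold change were -0.10 to 0.08, -0.06 to 0.17 and -0.10 to 0.05. These intervals leave room for changes of up to 0.17 on the log2 scale. The sign of these estimates changed with the scaling or with single libraries left out.

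ZEB2 (ENSG00000169554; chromosome 2, 144364364 to 144524583, minus strand), the gene with a similar number of miR-200 seed matches, moved in opposite directions in the CRISPRi experiments. In SK-N-SH it fell from 60, 63.8 and 59.7 CPM to 48.2, 50.8 and 48.9 CPM. In SK-N-AS it rose from 64.6, 73, 71.4 and 69.7 CPM to 82.7, 84.2, 83.5 and 84.7 CPM. Neither pair of groups overlapped, and the changes were -0.31 ± 0.054 (1.24-fold lower, adjusted p = 5.75e-06) and 0.27 ± 0.035 (1.21-fold higher, adjusted p = 1.59e-07). With siRNA ZEB2 stood at 86.9 ± 2.52 and 84.8 ± 5.12 CPM (n = 5), with overlapping groups (-0.04 ± 0.043, adjusted p = 0.697).

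RUNX1 (ENSG00000159216; chromosome 21, 34787801 to 36004667, minus strand) rose in both CRISPRi experiments. In SK-N-SH the controls gave 44.9, 39.5 and 40.2 CPM and the knockdown libraries 72.3, 68.8 and 68.9 CPM. In SK-N-AS the controls gave 10.7, 12.3, 12.4 and 10.9 CPM and the knockdown libraries 20.7, 21.4, 23.3 and 20.3 CPM. No libraries overlapped in either line, and the rises were 1.7-fold (0.76 ± 0.056, adjusted p = 1.46e-14) and 1.85-fold (0.89 ± 0.062, adjusted p = 4.34e-14). With siRNA RUNX1 went from 31.8 ± 2.32 to 28.8 ± 1.64 CPM (n = 5), with overlapping groups (-0.14 ± 0.056, adjusted p = 0.118).

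RUNX2 (ENSG00000124813; chromosome 6, 45328157 to 45664349, plus strand) rose beside its paralogue. In SK-N-AS it went from 14.9, 15.7, 15.4 and 16.3 CPM to 20.7, 21, 20.3 and 19.9 CPM, a 1.32-fold rise (0.40 ± 0.053, adjusted p = 2.26e-07). In SK-N-SH CRISPRi it went from 4.71, 3.89 and 3.62 CPM to 5.76, 7.83 and 6.45 CPM, a 1.67-fold rise with a wide error (0.74 ± 0.15, adjusted p = 9.29e-05). Groups did not overlap in either line. With siRNA the controls gave 6.57, 6.39, 7.21, 7.09 and 6.8 CPM and the knockdown libraries 7.29, 8.72, 8.11, 8.04 and 7.45 CPM. Every knockdown library lay above every control, yet the difference of 0.22 ± 0.076 missed the threshold (adjusted p = 0.0799). It passed by DESeq2 (adjusted p = 0.0349), under library size alone (0.0275) and with upper-quartile factors (0.0409).

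SOX9 (ENSG00000125398; chromosome 17, 72121020 to 72126420, plus strand), a factor of cartilage and early neural crest, had the largest response of the 10 genes to siRNA. Controls gave 32, 32.9, 34.2, 35.6 and 29 CPM and knockdown libraries 13.2, 14.6, 13.9, 13.8 and 13.5 CPM. The groups lay far apart and SOX9 fell 2.37-fold (-1.25 ± 0.058, adjusted p = 5.29e-13), ranking 12 of 21018 genes by p, while FAM167A itself ranked 5. In SK-N-AS it fell 1.68-fold, from 65.7, 68.5, 67.1 and 74.2 CPM to 40.5, 42.7, 40.6 and 40.2 CPM (-0.75 ± 0.040, adjusted p = 4.39e-17), again with no overlap. In SK-N-SH CRISPRi the controls gave 33.5, 27.9 and 27.5 CPM and the knockdown libraries 30.7, 32.3 and 32.6 CPM. These overlapped (0.12 ± 0.073, adjusted p = 0.159), and only without control library 1 did SOX9 pass, as higher (0.20, adjusted p = 0.0178); under library size alone the estimate was -0.008. SOX9 fell with siRNA in SK-N-SH, where FAM167A kept 34.7% of its level, and in SK-N-AS CRISPRi, where it kept 10.7%. SOX9 did not pass in SK-N-SH CRISPRi, where FAM167A kept 1.33%. A link between SOX9 and the FAM167A left was not tested.

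BHLHE41 (ENSG00000123095; chromosome 12, 26120026 to 26125127, minus strand), also called DEC2 and known as a repressor in the circadian clock, changed in all 3 experiments. With siRNA it fell 1.72-fold, from 15.2, 14.1, 16, 14.3 and 12.6 CPM to 7.3, 8.57, 8.93, 8.94 and 8.21 CPM (-0.78 ± 0.075, adjusted p = 8.74e-08). In SK-N-SH CRISPRi it rose 1.58-fold, from 9.34, 9.5 and 9.39 CPM to 15, 15.8 and 13.7 CPM (0.66 ± 0.10, adjusted p = 6.73e-07). In SK-N-AS it rose 1.37-fold, from 19.8, 19, 20.6 and 22.6 CPM to 29.2, 27.1, 26.6 and 30.1 CPM (0.46 ± 0.054, adjusted p = 1.98e-08). The groups did not overlap in any experiment. The direction with siRNA was thus opposite to that with CRISPRi, for this gene as for PRRX1.

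Whether the response itself differed was tested as an interaction, each experiment against its own controls. Between CRISPRi and siRNA in SK-N-SH, 7 of the 10 responses differed (31.4% of 23287 genes), 5 higher (15.1% of all) and 2 lower (16.4%) with CRISPRi. The difference was 1.47 ± 0.066 for PRRX1 (adjusted p = 9.22e-19), 1.43 ± 0.13 for BHLHE41 (7.7e-11), 1.35 ± 0.10 for SOX9 (3.01e-13) and 0.89 ± 0.088 for RUNX1 (3.05e-10). TWIST1 differed by -0.69 ± 0.067 (1.83e-10) and ZEB2 by -0.29 ± 0.075 (0.00276). RUNX2 differed by 0.51 ± 0.17 (adjusted p = 0.0187), lost without SK-N-SH CRISPRi control library 2 (0.051) or 3 (0.0987) or knockdown library 2 (0.102), and under library size alone (0.123). SNAI1, SNAI2 and ZEB1 did not pass (differences 0.01, 0.33 and 0.06, adjusted p = 1, 0.165 and 0.72). Under library size alone the median of all genes moved from -0.06 to -0.22 in this comparison, and the share of higher calls from 47.9% to 26.9%. FAM167A kept 1.33% of its level with CRISPRi and 34.7% with siRNA. Method, library kit, FAM167A level left and experiment cannot be told apart.

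Between SK-N-AS and SK-N-SH with CRISPRi, 5 of the 10 responses differed (30.7% of 19862 genes), 2 higher (14.7% of all) and 3 lower (16%) in SK-N-AS. PRRX1 rose less in SK-N-AS by 0.99 ± 0.042 (log2 difference -0.99, adjusted p = 1.98e-24), and SOX9 differed by -0.88 ± 0.082 (1.95e-12). ZEB2 differed by 0.57 ± 0.065 (6.86e-10), the direction its opposite changes show. SNAI2 differed by 0.40 ± 0.13 (adjusted p = 0.0113), lost without SK-N-SH control library 2 (0.11) or knockdown library 1 (0.0518). TWIST1 differed by -0.18 ± 0.058 (adjusted p = 0.0115), lost without SK-N-SH knockdown library 2 (0.0517), under library size alone (0.593) and with no filter (0.0779). RUNX1 (0.12, 95% interval -0.05 to 0.29, adjusted p = 0.342) and BHLHE41 (-0.21, -0.44 to 0.01, adjusted p = 0.177) did not pass, and RUNX1 passed under library size alone (0.26, adjusted p = 0.0194).

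RUNX2 (-0.36, adjusted p = 0.0709) and SNAI1 (0.28, adjusted p = 0.0759) came near the threshold of the same SK-N-AS against SK-N-SH test. RUNX2 passed without SK-N-SH control library 1 (0.0391) or knockdown library 1 (0.0313). SNAI1 passed without SK-N-SH control library 2 (0.0348), SK-N-SH knockdown library 1 (0.0434) or SK-N-AS control library 1 (0.023), and under library size alone (0.00535). ZEB1 did not pass (-0.09, adjusted p = 0.396). Under library size alone the median of all genes moved from 0.01 to 0.15 in this comparison, and the share of higher calls from 47.9% to 73.1%. FAM167A kept 10.7% of its level in SK-N-AS and 1.33% in SK-N-SH. Line, FAM167A level left and experiment cannot be told apart.

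Other genes of the same programmes were described from lists. Their counts stand beside the shares of all genes called. With siRNA 2.55% were higher and 6.98% lower, in SK-N-SH CRISPRi 27.7% and 28%, and in SK-N-AS 15.2% and 15.5%. Of 27 further mesenchymal neuroblastoma factors, with siRNA 10 of 25 tested fell and EGR3 rose (median log2 fold change -0.17). The falls were led by WWTR1, the coactivator TAZ (-0.62 ± 0.061), GLIS3 (-0.67 ± 0.081), FOSL1, an AP-1 subunit (-0.65 ± 0.074), and YAP1, the partner coactivator of TEAD factors (-0.38 ± 0.052). In SK-N-SH CRISPRi 20 of 24 rose and 3 fell (median 0.52; without knockdown library 1, only 1 fell). AEBP1 rose by 0.88 ± 0.041, IFI16, a nuclear DNA sensor, by 0.82 ± 0.043 and YAP1 by 0.76 ± 0.043. In SK-N-AS 15 of 24 rose and 2 fell (median 0.28), led by IFI16 (1.58 ± 0.034), CREG1 (0.53 ± 0.032), FOSL2 (0.45 ± 0.029) and FOSL1 (0.40 ± 0.034). EGR3 was low, at 0.676 ± 0.132 CPM in siRNA controls and 1.075 ± 0.223 CPM after knockdown (SD, n = 5). Its call was lost without siRNA control library 1, 3 or 4 or knockdown library 1, 2, 3 or 5, where 0 factors rose. With a filter of at least 1 CPM, 0 of 24 rose with siRNA.

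Mesenchymal effector genes, the matrix, adhesion and contractile products of this state, showed 9 falls and 3 rises among 22 with siRNA (median -0.11), 21 rises and 1 fall of 22 in SK-N-SH CRISPRi (median 0.82) and 10 rises and 6 falls of 21 in SK-N-AS (median 0.12). CD44, the hyaluronan receptor, fell with siRNA by 1.70 ± 0.052 on the log2 scale, ITGA5 by 0.71 ± 0.061 and CDH2, N-cadherin, by 0.47 ± 0.041, while TAGLN rose (0.63 ± 0.064). In SK-N-SH CRISPRi COL3A1 rose by 1.51 ± 0.042, POSTN, periostin, by 1.21 ± 0.038, SPARC by 1.08 ± 0.041 and CDH2 by 0.98 ± 0.040. In SK-N-AS PDGFRA, a receptor of platelet-derived growth factor, rose by 0.83 ± 0.028, SPARC by 0.65 ± 0.021 and COL3A1 by 0.47 ± 0.022.

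Markers of other cell states moved with these groups. In SK-N-SH CRISPRi 10 of 11 adrenergic markers fell and TBX2 rose, and their summed level went from 2781 to 2963 CPM in controls to 1131 to 1195 CPM. In SK-N-AS 7 of 12 fell and TBX2 rose, with sums of 2436 to 2547 and 2044 to 2154 CPM. With siRNA 2 of 11 rose, ISL1 among them, and none fell, with sums of 4018 to 4498 and 4180 to 4703 CPM; 6 rose under library size alone, and 1 rose without control library 1, 3, 4 or 5 or knockdown library 1, 2 or 5. Fibroblast and smooth muscle markers summed to 764 to 827 CPM in SK-N-SH CRISPRi controls and 1604 to 1690 CPM after knockdown (7 of 7 tested rose), 1057 to 1089 and 1172 to 1226 CPM in SK-N-AS (4 of 6 rose, 1 fell), and 398 to 437 and 407 to 438 CPM with siRNA (2 of 8 rose, 1 fell). The part of these shifts in the results on the 10 genes was not tested.

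**Figure D4:**
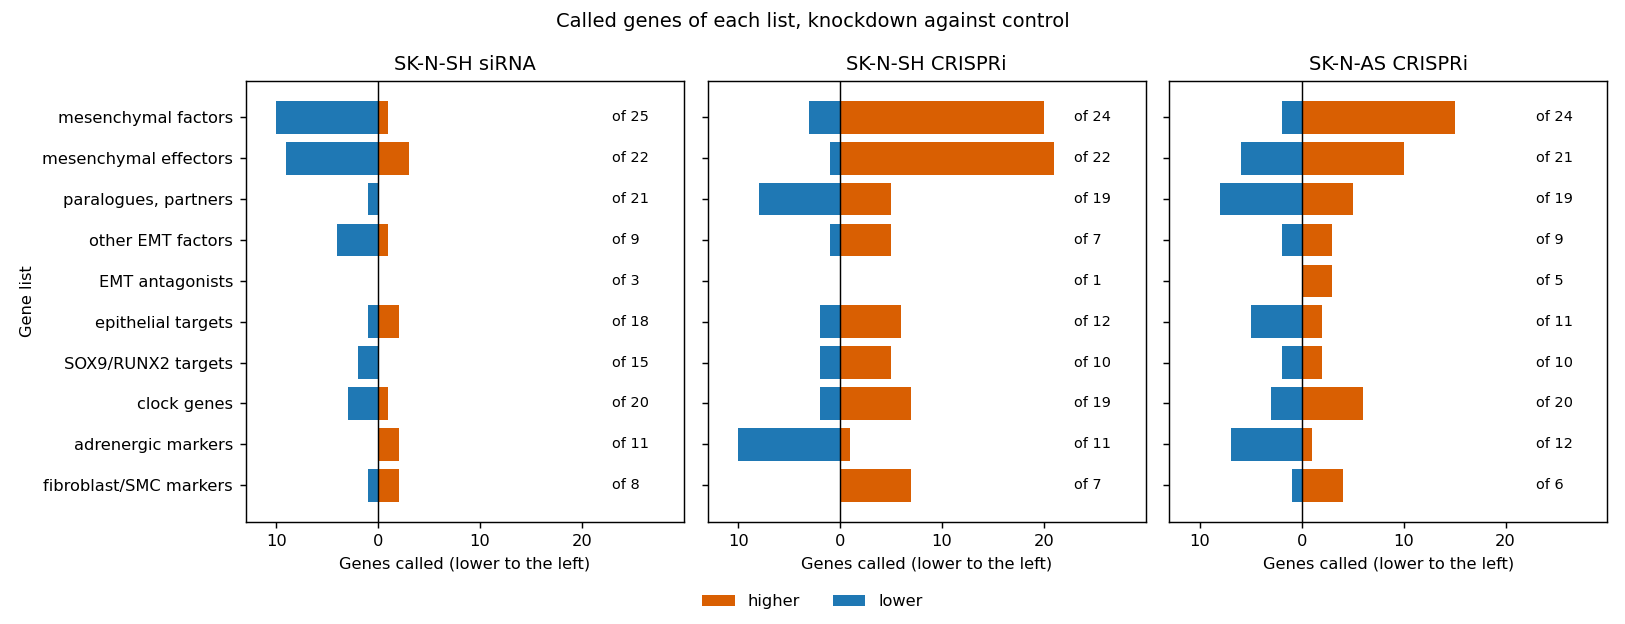
Number of genes called higher (orange, right) or lower (blue, left) in each list, per experiment, with the number tested at the right of each bar. Mesenchymal factors and effectors lie mostly to the left with siRNA (10 and 9 lower) and mostly to the right in SK-N-SH CRISPRi (20 and 21 higher), where 10 of 11 adrenergic markers are lower.

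Paralogues and binding partners of the 10 factors changed with no common direction. With siRNA 1 of 21 fell, CBFB, the shared partner subunit of RUNX proteins (-0.16 ± 0.048, adjusted p = 0.0313). This call was lost without control library 1, 2, 3 or 4 or knockdown library 2 or 4, under library size alone (adjusted p = 0.139) and with upper-quartile factors (0.0671), and the count was 4 without control library 5 and 3 without knockdown library 5. In SK-N-SH CRISPRi 5 of 19 rose and 8 fell. BHLHE40, the paralogue of BHLHE41, rose by 1.68 ± 0.097, while PRRX2, the paralogue of PRRX1, fell by 1.46 ± 0.13, ID2, an inhibitor of helix-loop-helix factors such as TWIST1, by 0.88 ± 0.043 and KDM1A, a demethylase recruited by SNAI1, by 0.44 ± 0.041. In SK-N-AS 5 of 19 rose and 8 fell, and the inhibitors ID3 (0.56 ± 0.033), ID1 (0.43 ± 0.037) and ID2 (0.32 ± 0.029) rose while TCF3, an E-protein partner of TWIST1, fell (-0.27 ± 0.027).

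Other EMT-linked factors moved in both directions. With siRNA 4 of 9 fell, HMGA2 (-0.36 ± 0.047), ETS1 (-0.33 ± 0.051) and PRDM1 (-0.59 ± 0.10) among them, and 1 rose. In SK-N-SH CRISPRi 5 of 7 rose, with PRDM1 at 1.1 ± 0.12 and HMGA2 at 0.85 ± 0.041, and SOX4 fell (-0.76 ± 0.042; 2 fell without knockdown library 2). In SK-N-AS 3 of 9 rose, ETS1 (0.68 ± 0.050), HMGA2 (0.64 ± 0.044) and FOXC1 (0.44 ± 0.087), and 2 fell, SOX4 among them (-0.25 ± 0.030).

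Epithelial genes that SNAI and ZEB proteins repress were mostly low. CDH1, E-cadherin, had 77 reads in the 10 siRNA libraries together, 6 in the 6 SK-N-SH CRISPRi libraries and 2 in the 8 SK-N-AS libraries. Of 22 epithelial targets, 2 of 18 tested rose and 1 fell with siRNA, 6 of 12 rose and 2 fell in SK-N-SH CRISPRi, and 2 of 11 rose and 5 fell in SK-N-AS. The keratins KRT8 (1.25 ± 0.10) and KRT18 (0.94 ± 0.045) and the claudin CLDN1 (0.61 ± 0.11) rose in SK-N-SH CRISPRi, where CGN, cingulin of tight junctions, fell (-1.06 ± 0.25). In SK-N-AS CGN (-1.37 ± 0.28), the polarity genes LLGL2 (-0.52 ± 0.073) and PATJ (-0.36 ± 0.092) and CLDN4 (-0.28 ± 0.047) fell. With siRNA KRT18 rose (0.30 ± 0.062) and CLDN4 fell (-0.38 ± 0.096), and 2 of these genes fell without control library 5 or knockdown library 1. CLDN3 rose with siRNA from a mean of 0.36 to 0.65 CPM, by 0.83 ± 0.26 (adjusted p = 0.045). This call was lost without control library 1, 2, 3 or 4 or knockdown library 2, 4 or 5. It was also lost without both libraries that stood apart (adjusted p = 0.105) and with no filter (0.0625).

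Of 14 EMT antagonists, epithelial factors such as GRHL2 and OVOL1, most were too low to test. With siRNA 0 of 3 tested were called by edgeR, KLF4 coming nearest (-0.60 ± 0.24, adjusted p = 0.13), and in SK-N-SH CRISPRi 0 of 1, GRHL1 (0.17 ± 0.18, adjusted p = 0.438). In SK-N-AS 3 of 5 rose, KLF4, a factor of epithelial differentiation (0.97 ± 0.066), EHF (1.55 ± 0.26) and ELF3 (0.49 ± 0.13), the last 2 being ETS factors of epithelia. ESRP1, the epithelial splicing regulator, had 0 reads in all 24 libraries.

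Cartilage and bone genes known as SOX9 and RUNX2 targets were followed because both factors moved. With siRNA, where SOX9 fell and RUNX2 did not pass, 2 of 15 tested fell and none rose (median log2 fold change 0.02). The falls were SPP1, osteopontin (-1.08 ± 0.13), and PTHLH (-0.54 ± 0.089). The cartilage collagens COL9A1 (1.65 to 2.14 CPM), COL9A2 (3.89 to 4.46 CPM) and COL9A3 (2.53 to 2.65 CPM) were not called there. In SK-N-AS, where SOX9 fell and RUNX2 rose, the collagens COL9A3 (-0.79 ± 0.15) and COL9A2 (-0.68 ± 0.14) fell and ALPL (1.15 ± 0.29) and PTHLH (0.56 ± 0.10) rose. These were 4 calls among 10, where 30.6% of all genes were called. The list was near the floor there, with 17 of 21 genes under 1 CPM in controls and a sum of 12.9 to 15.4 CPM. With a filter of at least 1 CPM, 4 were tested, of which 1 rose and 2 fell. A link to SOX9 or RUNX2 was not tested. In SK-N-SH CRISPRi 5 of 10 rose and 2 fell (4 fell without knockdown library 3). COL10A1, a marker of hypertrophic cartilage, rose by 2.41 ± 0.060, HAPLN1 by 2.16 ± 0.063 and MATN3 by 0.67 ± 0.13. COL9A1, a cartilage collagen, fell from 93 reads over the control libraries to 1 read over the knockdown libraries (adjusted p = 8.64e-11).

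Clock genes were set beside BHLHE41. NPAS2, an activator of the clock, fell with siRNA (-0.72 ± 0.053) and rose in SK-N-SH CRISPRi (0.83 ± 0.062) and SK-N-AS (0.46 ± 0.030), the same directions as BHLHE41. BMAL2 fell with siRNA (-0.27 ± 0.056) and rose in SK-N-SH CRISPRi (0.66 ± 0.063). Of 20 clock genes 1 rose and 3 fell with siRNA, and of these RORA (0.21, adjusted p = 0.0425) and PER1 (-0.15, adjusted p = 0.0428) were lost without both libraries that stood apart (adjusted p = 0.0842 and 0.0829). RORA was also lost without any single siRNA library except control library 2, and PER1 without any except control library 3 and knockdown library 4. With no filter both were lost (adjusted p = 0.0577 for RORA and 0.0724 for PER1), and PER1 also under library size alone (0.198) and with upper-quartile factors (0.113). In SK-N-SH CRISPRi 7 of 19 rose and 2 fell (6 and 6 under library size alone), where 27.7% of all genes were higher and 28% lower. RORB fell by 2.90 ± 0.14. In SK-N-AS 6 of 20 rose and 3 fell, with RORB at -0.52 ± 0.034, NFIL3 at 0.39 ± 0.053 and PER1 at 0.34 ± 0.058.

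Antisense and neighbouring non-coding genes of the members, and of SNAI3, a paralogue that is not a member, were nearly all low. Whether counting used strand was not given in the sources used here. Their reads therefore cannot be told apart from those of overlapping genes. SOX9-AS1 fell beside SOX9 in SK-N-AS (-1.03 ± 0.26, adjusted p = 0.00194). SNAI3-AS1 rose in SK-N-AS (0.50 ± 0.16, adjusted p = 0.0145), a call lost without control library 4 (0.0627) or knockdown library 1 (0.0999). Its rise in SK-N-SH CRISPRi (0.66 ± 0.26, adjusted p = 0.0323) was lost without control library 1 (0.151) or 2 (0.0649) or knockdown library 1 (0.139) or 3 (0.0659), by DESeq2 (0.0556) and under library size alone (0.08). With siRNA its difference of -0.28 missed the threshold (adjusted p = 0.302).

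The genes whose levels followed a member most closely were sought for the 3 members with the largest root mean square response, SOX9 (0.84 on the log2 scale), PRRX1 (0.73) and RUNX1 (0.68), over all 24 libraries after taking out the mean of each experiment. Among 13431 genes, STRADB, a pseudokinase, was closest to SOX9 (Pearson r = 0.96), followed by PACC1, a proton-activated chloride channel (0.94), and SMARCD2, a subunit of SWI/SNF complexes (0.92). Closest to PRRX1 were ITGB1, integrin beta 1 (0.99), FRMD6 (0.98) and OPTN (0.98). Closest to RUNX1 were CEMIP, a hyaluronan-degrading protein (0.97), TGM2, transglutaminase 2 (0.97), and GLIPR1 (0.97). These values describe libraries that share their knockdown and control groups, so that any gene with the same 3 shifts scores highly. CEMIP, for example, stood at -0.32, 2.52 and 2.42 in the 3 experiments, and STRADB at -0.65, 0.23 and -0.41.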

How the data were processed

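Per the labels' protocols, CRISPRi libraries used the Illumina Stranded mRNA Prep kit and siRNA libraries poly-T-selected mRNA. The submitters' processing notes name bcl2fastq 2.20.0.422 and 2.20, CASAVA, FastQC 0.11.8, STAR 2.6.1d, featureCounts 1.5.1 and GRCh38, with no role given. The deposited tables hold raw read counts per gene, 1 table per experiment; all 24 libraries were used. Gene length, another column that the authors deposited with the siRNA table, served for TPM in all 3.

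Counts were filtered with filterByExpr (minimum count 10, minimum total 15) and TMM-scaled, and tested by edgeR 4.0.16 (glmQLFit, robust; two-sided) in R 4.3.3, with DESeq2 1.42.0, library size alone, upper-quartile factors, other filters, a replicate block and each library left out as alternatives. Differences in response were interaction terms over genes in both tables. The code was tested on simulated data.

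The 10 members and all gene lists were chosen with earlier results of these data known. Named are all members, up to 4 called genes per list and experiment with the smallest adjusted p (otherwise 1), and 3 genes most like each of 3 members. Some list genes that meet this rule are not reported here. EGR3, TBX2, ISL1, PTPRC, GATA3, DBH, TH, the COL9 genes with siRNA and genes given by reads alone were named after their values were seen. Promoters and microRNAs are from RefSeq (GRCh38).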

Additional observations from a re-analysis of the deposited data

Results flagged for a closer look

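Among 40 groups of 4 or 5 libraries (10 genes in the siRNA and SK-N-AS groups), 1 held a library far from the rest: PRRX1 in siRNA knockdown library 5, at 307.2 CPM, with the next library at 291 CPM and the lowest at 286.6 CPM. Chance alone picks out about 1 in 20 such groups. It still lay below every control library.

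The response to knockdown differed between CRISPRi and siRNA in SK-N-SH, by the interaction test, for PRRX1 (1.47 on the log2 scale), BHLHE41 (1.43), SOX9 (1.35), RUNX1 (0.89), RUNX2 (0.51), ZEB2 (-0.29) and TWIST1 (-0.69). PRRX1 and BHLHE41 fell with siRNA and rose with CRISPRi in a line of the same name. Between SK-N-AS and SK-N-SH with CRISPRi it differed for PRRX1 (-0.99), SOX9 (-0.88), TWIST1 (-0.18), SNAI2 (0.40) and ZEB2 (0.57), of which ZEB2 fell in SK-N-SH and rose in SK-N-AS.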

How the results depend on the processing

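Of 1000 values of single members under other settings, 941 kept direction and side of the threshold, 22 lost a call, 15 gained one and 22 changed sign; none of the sign changes touched a called gene, and the cause was not tested. All 100 counts of called members stayed within 1.5 times the main count, the replicate block included. Under library size alone the signs that changed were those of ZEB1 (0.0378 with siRNA, -0.0757 in SK-N-SH CRISPRi, -0.11 for CRISPRi against siRNA, 0.0436 for SK-N-AS against SK-N-SH), ZEB2 with siRNA (0.0137), SOX9 in SK-N-SH CRISPRi (-0.00803) and SNAI1 for CRISPRi against siRNA (-0.162, and -0.00399 with no filter). ZEB1 with siRNA was 0.0186 with upper-quartile factors and 0.0117 without both libraries that stood apart. With single libraries left out ZEB1 ran from -0.0507 to 0.009 with siRNA, -0.0168 to 0.107 in SK-N-SH CRISPRi, -0.0489 to 0.00397 in SK-N-AS and -0.00705 to 0.126 for CRISPRi against siRNA, and SNAI1 from -0.0668 to 0.108 in the last.

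Samples with the same replicate number did not deviate together (correlations -0.14 to 0.05; not every library matched its own number best). With the replicate block the members called stayed 3, 6 and 9, while genes called over the whole tables were 1532 in place of 2004 (siRNA), 8460 in place of 8582 (SK-N-SH CRISPRi) and 5894 in place of 5904 (SK-N-AS). With siRNA the block left CBFB (adjusted p = 0.0606), CLDN3 (0.0918), RORA (0.0824) and PER1 (0.0884) short of the threshold. It gave 0 mesenchymal factors higher and 8 lower, in place of 1 and 10, and 1 adrenergic marker higher in place of 2. List counts and list genes under these settings were added after the data were seen: of 1201 values of list genes 52 lost a call, all in CBFB, CLDN3, RORA, PER1 and SNAI3-AS1. Depth limits SNAI2 and RUNX2 in SK-N-SH CRISPRi, with 347 and 198 control reads in all.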
